A study of Mus musculus with 6 samples.

Results

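Cytosolic ribosomal protein genes were examined in dendritic cells (DCs), the cells that present antigen to T cells, sorted from the lymph nodes of mice given antibiotics and of mice given none. The genes were taken by symbol: every name in the platform annotation that begins with Rpl or Rps followed by a digit, or with Rplp0 to Rplp2, leaving out the Rps6k kinases. This gave 65 genes with 82 probes, of which 52 genes were measured (32 Rpl and 20 Rps), out of 6331 rows tested. A gene counted as measured when a probe had a detection p-value under 0.05 on at least 3 of the 6 arrays, and the probe with the highest mean stood for the gene. The treated mice (Mus musculus) received broad-spectrum antibiotics by gavage for 10 days, and the untreated mice are labelled as having no treatment, with no sham gavage named, so an effect of gavage and one of the drugs cannot be told apart. Each group had 3 arrays of total RNA, biotin-labelled, from DCs stained and sorted out of peripheral lymph nodes. The labels give no strain, sex, age, sorting gate or antibiotic names, and do not say whether a replicate is 1 animal or a pool, so the p-values below measure only how these samples varied among themselves, and that spread may be technical. In sorted bulk samples, fewer cells of a type and less RNA per cell cannot be told apart.

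A ribosome joins a large subunit, where peptide bonds form, to a small subunit, where codons are read. Rpl genes encode proteins of the large subunit and Rps genes those of the small one. Cells make these proteins in matched amounts, and their mRNAs share a terminal oligopyrimidine (TOP) start through which the kinase mTOR sets how strongly they are translated. DCs are known for regulating protein synthesis as they mature.

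Antibiotics replicate 1 stood apart from the other arrays. It lay at -25.3 on the first principal component of all rows, against 1.36 to 11.5 for the other 5 arrays, and had the fewest detected probes, 6876 of 25697, where the others had 7299 to 7674. Of 12 DC markers 9 were measured, among them Zbtb46 and Itgax on all 6 arrays and Xcr1 on 3. Flt3, Sirpa and Ly75 were detected on 0. Of markers of other cells, 3 of 9 B cell genes were measured, with summed linear levels of 238 to 279 after antibiotics and 307 to 364 in untreated samples. The brightest of them, Cd79b, had a log2 fold change of -0.057. The dimmer Cd22 and Fcmr stood at -0.79 and -1.06, so the sum is no measure of B cells. For macrophages 4 of 8 were measured (Lyz2, Adgre1, C1qa and C1qb), summing to 1724 to 1942 after antibiotics and 1116 to 1602 in untreated samples. Lyz2, the brightest, made most of that sum. The log2 fold changes were 0.54 for Lyz2 and 0.33 for Adgre1, but 0.029 for C1qa and 0.018 for C1qb. Fcgr1 and Mertk were detected on 0 arrays. For plasma cells 3 of 6 summed to 1016 to 1261 after antibiotics and 783 to 970 in untreated samples. Of these Xbp1 stood at 0.29 and Txndc5 at 0.51, but the dimmer Mzb1 at -0.16. Sdc1, Jchain and Prdm1 were detected on 0 arrays, so the sum is no measure of plasma cells. For plasmacytoid DCs 3 of 6 (Bst2, Tcf4 and Cox6a2) summed to 598 to 690 after antibiotics and 695 to 877 in untreated samples. Siglech and Klk1 were each detected on 2 arrays and Ccr9 on 0, so this sum is no measure of plasmacytoid DCs. The B and T cell genes Ms4a1, Cd79a, Cd3d and Cd3e were detected on 0 arrays. Other genes of those lists were detected, Cd79b and Il7r on 6 arrays and Cd22 and Fcmr on 5. Of the NK cell genes, Klrk1 and Prf1 were detected on 6 arrays and Ncr1, Klrb1c, Gzma and Eomes on 0. The part of these cells and of antibiotics replicate 1's position in the values below was not tested.

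Ribosomal protein genes lay slightly above the untreated level, with no single gene past the test. Of the 52 genes, 35 (67.3%) were higher after antibiotics and 17 lower, against 53.6% higher over all rows. Their median log2 fold change, antibiotics minus untreated, was 0.089, against 0.017 over all rows. The single fold changes ran from -0.37 to 0.47. None reached an adjusted p under 0.05 in limma, where the members' adjusted p ran from 0.631 to 0.9998. Over all rows 0 of 6331 passed (0%), and at an unadjusted p under 0.05 there were 2 of 52 ribosomal protein genes (3.85%), Rpl29 and Rps15, against a background of 7.74%. The 3 antibiotics arrays all lay above the 3 untreated ones in 8 of the 52 genes (15.4%), where 7.12% of all rows did. In 0 of the 52 were all 3 below, where 6.62% of all rows were. Counting both directions the background was 13.7%. Fewer arrays separate more easily, and without antibiotics replicate 3 or untreated replicate 3 the 8 became 13 or 14, where 12.7% or 13.4% of all rows were of this kind. The 0 genes with all antibiotics arrays below became 6 without antibiotics replicate 1 or without untreated replicate 1, 3 without antibiotics replicate 2, and 1 without any of the other arrays in turn, where 9.98% to 12.4% of all rows were of this kind.

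**Figure D1:**
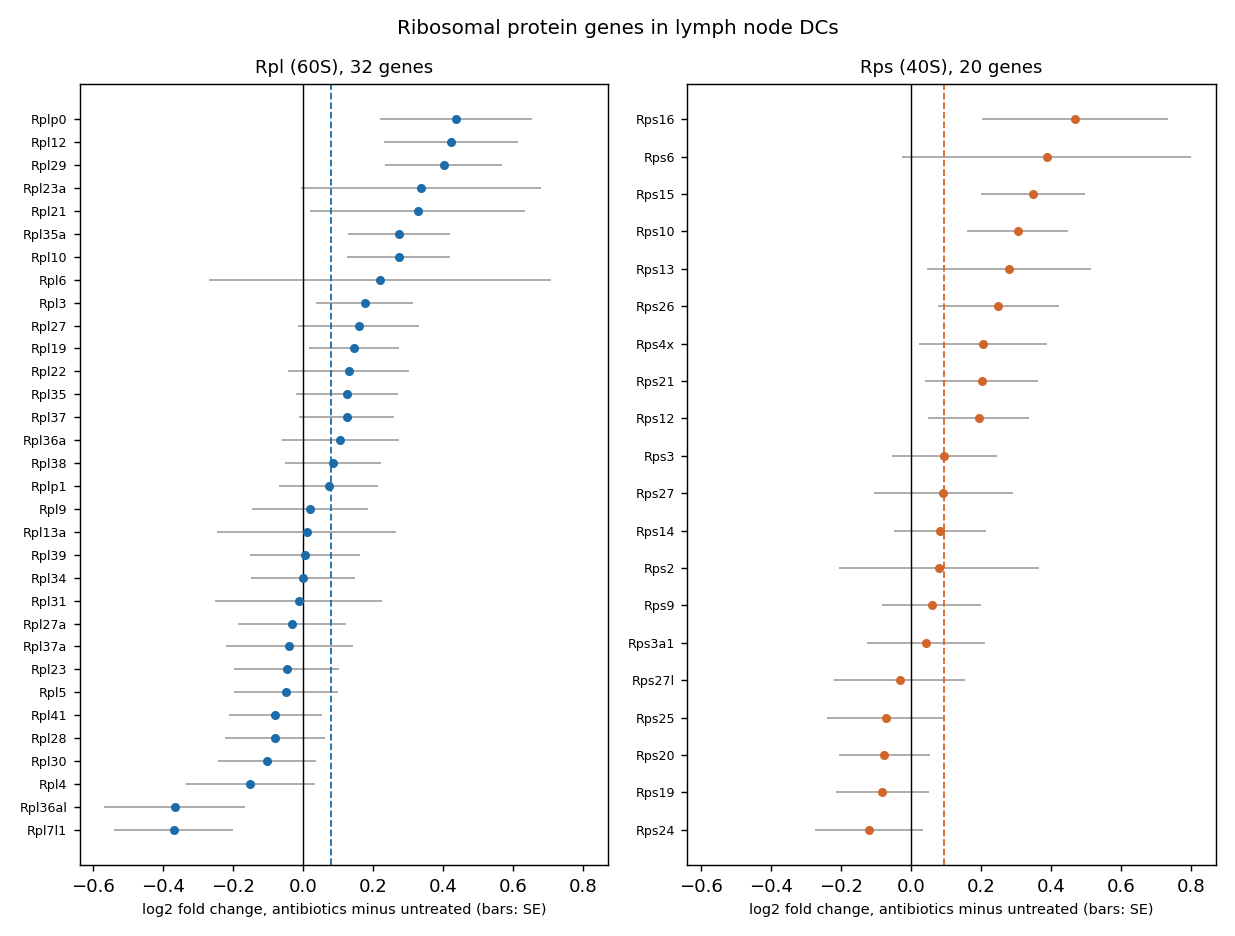
Log2 fold change of each measured ribosomal protein gene (x axis, antibiotics minus untreated, bars are limma's SE), with Rpl genes on the left and Rps genes on the right. The dashed lines mark the medians, 0.079 and 0.094, and most bars cross or come near 0.

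The large and the small subunit gave similar values. Among Rpl genes 20 of 32 (62.5%) were higher after antibiotics, with a median of 0.079 and quartiles of -0.042 and 0.19. Among Rps genes 15 of 20 (75%) were higher, with a median of 0.094 and quartiles of 0.025 and 0.26. The medians differed by -0.016 (Rpl minus Rps), and the group means of the Rpl-minus-Rps deviation by -0.058, where that deviation had an SD of 0.097 between arrays of a group. With the mean of a gene's kept probes the medians differed by -0.11, further from 0 than with 1 probe per gene. That SD is of another measure and cannot be set against it. With 1 probe per gene, the difference of medians turned its sign without antibiotics replicate 1, to 0.018. It was -0.13 without antibiotics replicate 2.

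Array by array, the groups overlapped in both subunits. Levels of different probes cannot be set against each other, so each gene was taken as its deviation from its own mean over the 6 arrays. For Rpl genes the mean deviation was 0.12, 0.087 and -0.086 on antibiotics replicates 1, 2 and 3, and -0.20, 0.0031 and 0.082 on untreated replicates 1, 2 and 3. For Rps genes it was 0.25, 0.022 and -0.071 on antibiotics replicates 1, 2 and 3, and -0.14, -0.019 and -0.041 on untreated replicates 1, 2 and 3. In both subunits the lowest array was untreated replicate 1 and the highest was antibiotics replicate 1, while antibiotics replicate 3 lay below untreated replicates 2 and 3. Group means were 0.039 ± 0.11 after antibiotics and -0.039 ± 0.15 in untreated samples for Rpl genes (SD, n = 3). For Rps genes they were 0.068 ± 0.17 after antibiotics and -0.068 ± 0.067 in untreated samples (SD, n = 3).

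The same 2 arrays stood at the ends gene by gene. Antibiotics replicate 1 held the highest value of the 6 arrays in 24 of the 52 genes, and untreated replicate 1 held the lowest in 23 (a tie counts for each array that shares it). Antibiotics replicate 3 lay above the gene's own mean in 19 genes, fewer than untreated replicate 2 with 28 and untreated replicate 3 with 30. Leaving out untreated replicate 1 gave an Rpl median of 0.0042, leaving out antibiotics replicate 2 gave 0.037, and leaving out untreated replicate 3 gave 0.13. Over all rows the median was 0.017 without untreated replicate 1, above that of the Rpl genes. For Rps, leaving out antibiotics replicate 1 gave 0.040 and leaving out untreated replicate 1 gave 0.054. Leaving out antibiotics replicate 2, antibiotics replicate 3 or untreated replicate 2 gave 0.17, 0.18 or 0.15. The 4 macrophage markers had their highest and lowest arrays in the same places, with mean deviations of 0.27, 0.15 and -0.080 on antibiotics replicates 1, 2 and 3, and -0.33, -0.12 and 0.11 on untreated replicates 1, 2 and 3. The part of macrophage RNA in the ribosomal protein values was not tested.

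The Rpl-minus-Rps difference also overlapped. It was -0.14, 0.065 and -0.014 on antibiotics replicates 1, 2 and 3, and -0.059, 0.022 and 0.12 on untreated replicates 1, 2 and 3. Its group means were -0.029 ± 0.10 after antibiotics and 0.029 ± 0.091 in untreated samples (SD, n = 3). On antibiotics replicate 1 the small-subunit genes lay further above their own means than the large-subunit genes did.

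**Figure D2:**
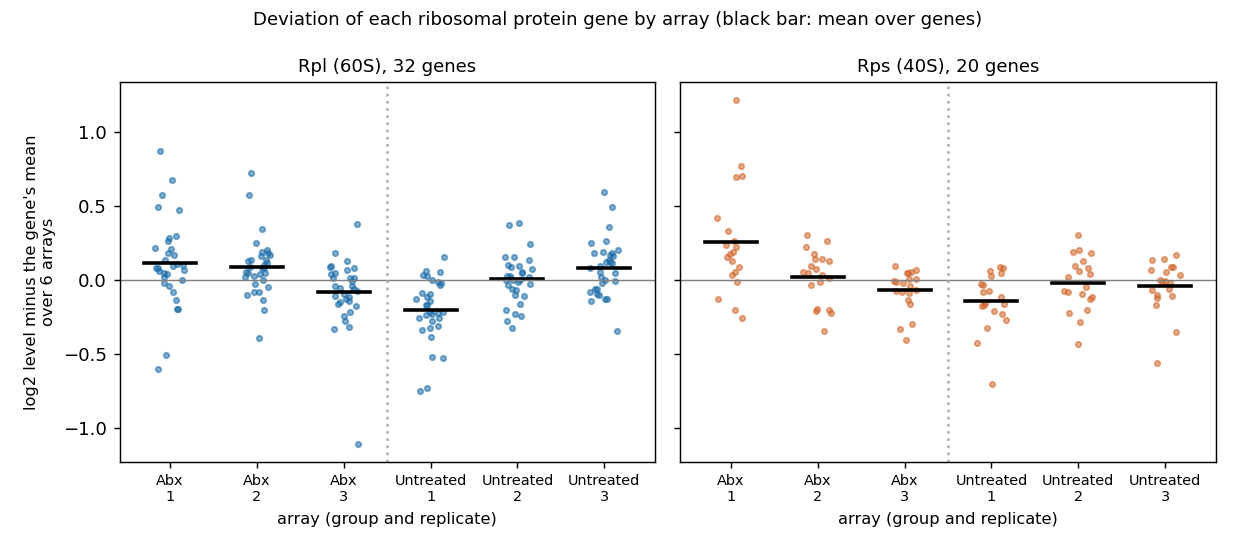
Deviation of each gene from its own mean over the 6 arrays (y axis, log2 units) for every array (x axis, Abx stands for antibiotics), Rpl genes left and Rps genes right, with black bars at the mean over genes. Antibiotics replicate 1 has the highest bars, 0.12 and 0.25, and untreated replicate 1 the lowest, -0.20 and -0.14.

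The stalk of the large subunit recruits and activates the translation factors that hydrolyse GTP. Of its measured genes, Rplp0 and Rpl12 had the largest Rpl differences. In both, antibiotics replicate 1 was the highest array and untreated replicate 1 the lowest. Rplp0, the stalk's anchor, had normalized log2 levels of 8.73, 8.58 and 8.06 after antibiotics, against 7.72, 8.25 and 8.10 in untreated samples. Antibiotics replicates 1 and 2 were above all untreated arrays and the third lay among them. The log2 fold change was 0.44 (SE 0.22, limma adjusted p = 0.686).

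Rpl12, at the base of the stalk, had 10.67, 10.27 and 9.99 after antibiotics, against 9.76, 9.94 and 9.98 in untreated samples. Here the groups did not overlap, though antibiotics replicate 3 exceeded the highest untreated array only narrowly. The fold change was 0.42 (SE 0.19, limma adjusted p = 0.635). Rplp1, an acidic stalk protein, stood at 0.072, with a level of 12.28 ± 0.071 after antibiotics and 12.21 ± 0.13 in untreated samples (SD, n = 3). The probe for its partner Rplp2 was detected on 0 arrays.

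Among the other large-subunit proteins, Rpl29, also known for binding heparin, had 11.40, 10.97 and 11.003 after antibiotics, against 10.71, 10.60 and 10.86 in untreated samples. Its groups did not overlap, at a log2 fold change of 0.40 (SE 0.17, limma adjusted p = 0.631). A dimmer second probe for Rpl29 gave -0.089, so the direction rests on the brighter probe. Rpl10, which joins late near the peptidyl transferase centre, had 12.59, 12.31 and 12.43 after antibiotics, against 12.05, 12.24 and 12.23 in untreated samples, a difference of 0.27 (SE 0.15). Rpl35a, mutated in some human patients with Diamond-Blackfan anaemia, a failure of red cell production, had 11.03, 10.85 and 10.83 after antibiotics, against 10.49, 10.76 and 10.64 in untreated samples. Both genes had groups that did not overlap and an adjusted p of 0.719 in limma. Rpl19, at a bridge to the small subunit, showed a small difference of 0.15 (SE 0.13) with tight groups, 10.74 ± 0.028 after antibiotics and 10.59 ± 0.033 in untreated samples (SD, n = 3).

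Around the exit tunnel, through which the growing peptide leaves, 5 of 6 measured rim genes were higher, at a median of 0.10. Rpl23a, a docking site for factors that meet the new peptide, varied most. It had 11.23, 10.71 and 10.22 after antibiotics, against 9.80, 10.31 and 11.04 in untreated samples, and both groups spanned more than 1 log2 unit. Its difference of 0.34 (SE 0.34) was no larger than its SE. Of the tunnel wall and its neighbourhood, Rpl3 stood at 0.18 (SE 0.14) and Rpl4 at -0.15 (SE 0.18). Rpl5, which carries 5S ribosomal RNA into the large subunit and can bind the p53 regulator Mdm2, stood at -0.049 (SE 0.15), and its partner Rpl11 was not analysed here. Rpl13a, which in human myeloid cells can leave the ribosome and silence inflammatory mRNAs after interferon-gamma, was at 0.0093 (SE 0.26), with 1 untreated array at 9.38 and the other 5 arrays between 8.46 and 9.03.

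In the head of the small subunit 5 of 8 measured genes were higher, at a median of 0.14, and 3 of the 8 had all antibiotics arrays above all untreated ones, where 7.12% of all rows did. This held for 0 of the 11 genes of the body and platform. Rps16, whose tail reaches towards the decoding site, had the largest difference of all 52 genes. Its levels were 10.12, 9.43 and 9.40 after antibiotics, against 8.71, 9.28 and 9.55 in untreated samples. The span came from antibiotics replicate 1 at the top and untreated replicate 1 at the bottom, while the other 4 arrays lay between 9.28 and 9.55. The fold change was 0.47 (SE 0.27, limma adjusted p = 0.730), and it was 0.23 to 0.65 when each array was left out in turn.

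Rps15, also near the decoding site, had 9.01, 9.18 and 8.98 after antibiotics, against 8.81, 8.79 and 8.53 in untreated samples. All antibiotics arrays were above all untreated arrays, and the difference was 0.35 (SE 0.15, limma adjusted p = 0.634). Rps10, a protein marked with ubiquitin when ribosomes collide, had 10.78, 10.81 and 10.64 after antibiotics, against 10.43, 10.31 and 10.58 in untreated samples. It too did not overlap, at 0.31 (SE 0.14, limma adjusted p = 0.654). Rps12 was the third such gene in the head, at 0.19 (SE 0.14). Below 0 in the head were Rps19, the most often mutated gene in human Diamond-Blackfan anaemia, at -0.081 (SE 0.13), Rps20 at -0.075 and Rps25 at -0.072.

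In the body and platform 10 of 11 measured genes were higher, at a median of 0.093. Rps2, near the entry of the mRNA channel, shows how 1 array weighed on these genes. It had 11.71, 10.60 and 10.64 after antibiotics, against 10.74, 10.96 and 11.01 in untreated samples. Antibiotics replicate 1 was above every other array, and the other antibiotics arrays were below every untreated one. Its log2 fold change of 0.081 became -0.28 without that array and -0.14 with array weights. Rps13, with 9.20, 8.30 and 8.44 after antibiotics, against 8.33, 8.29 and 8.49 in untreated samples, had the same high array, and its 0.28 became 0.0029 without it. Rps6, the substrate that gives S6 kinases their name, was near the detection limit, on 2 of 3 arrays in each group. Its levels were 6.68, 5.23 and 5.05 after antibiotics, against 5.13, 5.76 and 4.90 in untreated samples, and its 0.39 (SE 0.41) became -0.12 without antibiotics replicate 1 and -0.099 with array weights. Rps26 at 0.25 (SE 0.17), Rps4x at 0.21 and Rps21 at 0.20 kept their sign in every fit run. Rps24 was the 1 gene of this group below 0, at -0.12 (SE 0.15), and its dimmer probe gave -0.40.

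**Figure D3:**
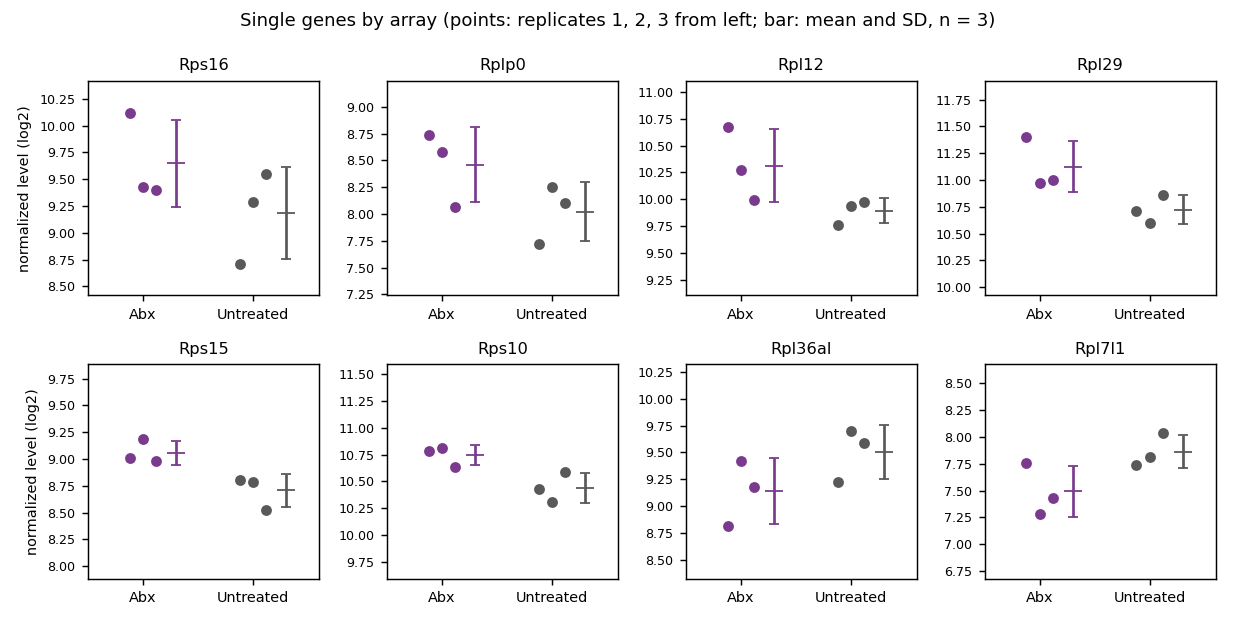
Normalized log2 level (y axis) of 8 genes on each array, antibiotics (Abx) left and untreated right, with the mean and SD beside the 3 points of a group and the same span of log2 units in every panel. Rpl12, Rpl29, Rps15 and Rps10 do not overlap between groups, while Rps16, Rplp0, Rpl36al and Rpl7l1 do.

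Of the 3 measured paralogs, genes that encode relatives of a ribosomal protein, Rpl36al and Rpl7l1 had the lowest fold changes of the 52 genes. Rpl36al, the near-identical relative of Rpl36a, had 8.81, 9.42 and 9.18 after antibiotics, against 9.22, 9.70 and 9.58 in untreated samples. The log2 fold change was -0.37 (SE 0.20, limma adjusted p = 0.727), the groups overlapped, and its sign was negative in every fit run. Rpl36a itself stood at 0.11 (SE 0.17), and whether the probes of the pair share signal was not tested. Rpl7l1, which resembles Rpl7 and is known for its part in ribosome assembly, had 7.76, 7.28 and 7.43 after antibiotics, against 7.74, 7.81 and 8.03 in untreated samples. Its fold change was -0.37 (SE 0.17, limma adjusted p = 0.645), and a second probe gave -0.13. Antibiotics replicate 1 of Rpl7l1 lay within the untreated range and the other antibiotics arrays below it. Rps27l, a paralog of Rps27 and a known p53 target, stood at -0.032 (SE 0.19), while Rps27 stood at 0.093. The 8 measured genes whose human counterparts are mutated in Diamond-Blackfan anaemia split evenly, 4 higher and 4 lower, at a median of 0.073. Without the 3 paralogs, a choice made after the values were seen, the medians were 0.095 for Rpl and 0.096 for Rps.

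The start regions of 7 genes from both ends of the list are shown, since motifs known from ribosomal protein promoters can be looked for in them. The letters are RefSeq's (GRCm38.p6), from 60 bases before to 30 bases after the annotated start, read in the direction of transcription. Capitals mark a pyrimidine stretch of the TOP kind near the start (CTTTCC or CTTTTC), the ETS-family motif CCGGAAG and the YY1 motif AAGATGGC.
Rps16: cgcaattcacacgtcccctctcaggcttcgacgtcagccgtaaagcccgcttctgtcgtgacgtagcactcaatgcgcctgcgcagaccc
Rplp0: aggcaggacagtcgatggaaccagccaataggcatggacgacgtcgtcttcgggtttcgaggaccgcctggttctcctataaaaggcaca
Rpl12: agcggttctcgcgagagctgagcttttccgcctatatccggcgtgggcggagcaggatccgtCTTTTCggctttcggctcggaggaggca
Rps15: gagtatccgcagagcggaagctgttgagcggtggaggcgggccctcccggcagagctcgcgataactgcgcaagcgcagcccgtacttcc
Rps10: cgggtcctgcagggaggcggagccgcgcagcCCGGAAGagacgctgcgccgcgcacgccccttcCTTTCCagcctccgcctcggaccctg
Rpl36al: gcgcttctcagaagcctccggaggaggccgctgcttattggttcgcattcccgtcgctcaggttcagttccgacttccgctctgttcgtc
Rpl7l1: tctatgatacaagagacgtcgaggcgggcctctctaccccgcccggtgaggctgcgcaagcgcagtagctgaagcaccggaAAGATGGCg
These lie at chr7:28350629-28350718 (plus strand, Rps16), chr5:115559407-115559496 (plus strand, Rplp0), chr2:32961652-32961741 (plus strand, Rpl12), chr10:80292371-80292460 (plus strand, Rps15), chr17:27635215-27635304 (minus strand, Rps10), chr12:69184038-69184127 (minus strand, Rpl36al) and chr17:46782627-46782716 (minus strand, Rpl7l1). Rpl12 and Rps10 carried the pyrimidine stretch, and Rps10 also the ETS motif. Rpl7l1 carried the YY1 motif, and these letters were not in the other 4 windows.

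Promoters were found in the RefSeq table for 44 of the 52 genes. CTTTCC or CTTTTC stood on the sense strand between 20 bases before and 30 after the start in 12 of the 44 (27.3%), against 4.72% of all 27025 genes in the table. The 12 were 9 of 26 Rpl genes and 3 of 18 Rps genes, and 0 of the 3 paralogs. CCGGAAG or its reverse complement was in the window of 300 bases in 18 of 44 (40.9%), against 9.93% of all genes. AAGATGGC, on either strand, was in 5 of 44 (11.4%), against 3.19%. CACGTG, the E-box that Myc binds, was in 5 of 44 (11.4%), against 8.09%. These are matches of letters, counted for a gene if any of its promoters held them.

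Fold changes and spread were also set beside the probes' signal. Of the 100 brightest rows 18 were ribosomal protein genes, and 33 of the 52 (63.5%) were among the brightest 633 rows (10% of all). The 18 genes with a mean level over 12 had fold changes between -0.12 and 0.27, a median of 0.040 and a median SD within groups of 0.11. The 18 between 9 and 12 ran from -0.37 to 0.47 with a median of 0.17 and a median SD of 0.19. The 16 under 9 ran from -0.37 to 0.44 with a median of 0.11 and a median SD of 0.23. Quantile normalization gives probes of equal rank the same value, and 10 of the 18 brightest genes had an identical value on more than 1 array, so small differences among them are differences of rank. Rpl34, for instance, had 12.20 on all 3 untreated arrays. Over all 52 genes the median SD within groups was 0.18, against 0.22 over all rows.

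**Figure D4:**
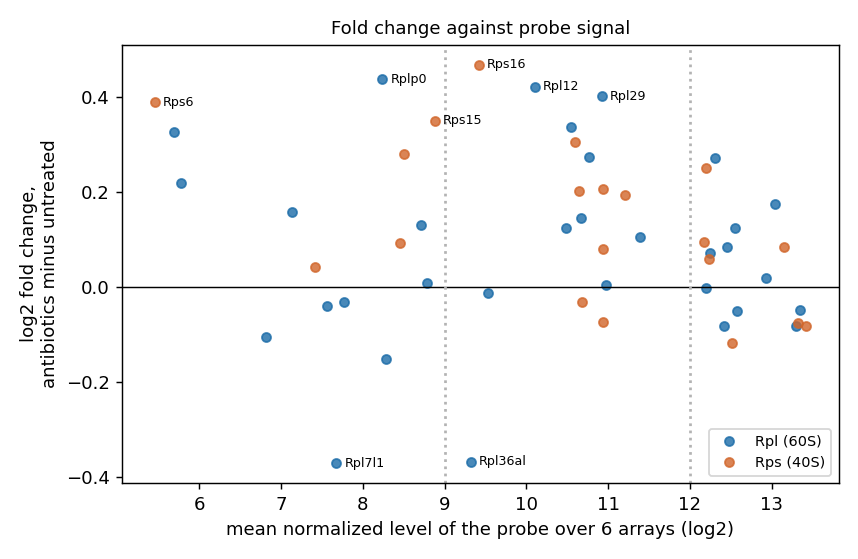
Log2 fold change (y axis, antibiotics minus untreated) against the mean normalized log2 level of the gene's probe over 6 arrays (x axis), with dotted lines at 9 and 12. Genes over 12 lie between -0.12 and 0.27, those below reach from -0.37 to 0.47, and the x axis is probe brightness and not transcript abundance.

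The 13 genes not measured were 8 Rpl and 5 Rps genes. Among them Rpl14, Rpl17, Rpl24, Rpl7a, Rplp2, Rps15a, Rps23 and Rps7 encode proteins of the ribosome in every cell, and the single probe of each was detected on 0 arrays, so those probes do not report the gene's level. The other 5 were Rpl22l1, Rpl39l, Rpl3l, Rps19bp1 and Rps23rg1, which encode paralogs, a binding partner of Rps19 and a retrogene product. Just outside the detection rule was Rpl3l, known as a form of striated muscle, on 2 arrays with intensities of 80.5 to 109 units. Just inside were Rpl6 and Rps6, each on 4 arrays. Rpl6 had 6.65, 6.35 and 4.67 after antibiotics, against 5.05, 5.93 and 6.02 in untreated samples, and its fold change ran from -0.28 to 0.83 over the fits run. Of 8 genes with several probes kept, Rpl23 and Rpl29 had probes of opposite sign. The 3 probes for Rpl23 gave -0.048, -0.059 and 0.14. Many processed copies of ribosomal protein genes lie in the mouse genome, and whether a probe also reads them was not tested.

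Other genes of the pathway were counted beside the 53.6% of all rows that were higher. Fau, which encodes a small-subunit protein under another name, had its 3 antibiotics arrays above the untreated ones at 0.15 (SE 0.14), and the probe for Rpsa was detected on 0 arrays. Of 17 other TOP mRNAs 11 were measured, 4 higher and 7 lower, at a median of -0.022. Eef1b2, a subunit of the factor that recharges elongation factor 1A, had the highest value, 0.41 (SE 0.23), and Eif3h, an initiation factor subunit, the lowest, -0.36 (SE 0.19). Of 61 ribosome biogenesis genes 37 were measured, 25 higher (67.6%) and 12 lower, at a median of 0.037. At an unadjusted p under 0.05, Nob1, which makes the final cut of small-subunit RNA, stood at 0.41 and Fbl, the RNA methyltransferase fibrillarin, at 0.32. In the same way Gnl2, a GTPase of large-subunit assembly, stood at -0.48 and Nvl at -0.76. Of 12 RNA polymerase I genes and factors on the array 8 were measured, 4 higher and 4 lower, at a median of -0.048. Of 16 regulators around mTOR and Myc 7 were measured, 6 higher and 1 lower (Rheb, at -0.067), at a median of 0.15. The list mixes activators and repressors, so this count gives no direction for the pathway. Eif4ebp1, which represses the cap-binding protein and is switched off by mTOR, had groups that did not overlap at 0.33 (SE 0.16, limma adjusted p = 0.659). None of these genes reached an adjusted p under 0.05 in limma.

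Mitochondrial ribosomal proteins, which serve the separate ribosome of that organelle, were the nearest family for comparison. Of 62 measured genes 29 were higher (46.8%) and 33 lower, at a median of -0.0044, against 67.3% higher and a median of 0.089 for the cytosolic genes. Whether the families differ was not tested. Mrps27 had the smallest unadjusted p of the family, at -0.77 (SE 0.14, limma adjusted p = 0.273). On untreated replicate 1, where cytosolic genes were lowest, the mitochondrial genes had a mean deviation of -0.045. The mitochondrial genes were lowest on antibiotics replicate 3, at -0.071.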

How the data were processed

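Groups and replicate numbers came from the sample titles. The authors deposited unnormalized probe intensity and detection p-values, per the file headers. The authors' normalized intensity table, which equals the series' values in 154182 cells, served as an alternative. For that table's making, the software and the genome build, the sources used here give nothing (not stated).

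The non-normalized intensity was processed with limma 3.58.1 in R 4.3.3: neqc background correction from the detection p-values, an offset of 16, quantile normalization and log2. The offset understates fold changes of dim genes, and quantile normalization hides a shift common to all genes. Probes detected on at least 3 of 6 arrays numbered 7507 of 25697, and made 6331 rows, 5901 of them named genes. Symbols were those of the platform annotation, where 23978 probes had 1 symbol, 1719 had none and 0 had several. All 82 member probes carried current symbols. Antibiotics were compared with untreated arrays by lmFit and eBayes, with Benjamini-Hochberg adjustment over all 6331 rows and a threshold of 0.05. An exact permutation test of 1 value would go no lower than 0.1 at this size. The number of arrays limits the precision. Motifs were searched with Python 3.11.15.

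The genes, lists and alternatives were chosen with earlier results of these data known. Values were planned for the 6 highest and 6 lowest fold changes per subunit, genes whose groups did not overlap, genes whose probes disagreed in sign and members of the lists by role. Alternatives were other background corrections and normalizations, the authors' table, detection filters, probe averaging, array weights, a replicate block and leaving out each array.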

Additional observations from a re-analysis of the deposited data

How the results depend on the processing

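Both medians were above 0 in all 17 alternatives, 17 of 17 for Rpl and 17 of 17 for Rps. The median over all rows was above 0 as well, from 0.0037 (no detection filter) to 0.049 (median scaling). Without untreated replicate 1 the Rpl median, 0.0042, lay below that of all rows, 0.017. In the 17 alternatives 0 ribosomal protein genes passed. Without leaving out arrays, the Rpl median ran from 0.015 (no detection filter) to 0.105 (cyclic loess) and the Rps median from 0.073 to 0.18 (mean of a gene's kept probes). Leaving out each array moved the Rpl median between 0.0042 and 0.13, the Rps median between 0.040 and 0.18, and the difference between both medians between -0.13 and 0.018. The count of genes with all antibiotics arrays above all untreated ones then ran from 8 to 14 and that of the opposite kind from 1 to 6, where fewer arrays also raise the share of all rows, to between 11.25% and 13.85% and between 9.98% and 12.4%. With the mean of a gene's kept probes, 1 gene had all antibiotics arrays below. A replicate block, with 1 array of each group per block, cannot move the fold changes. Its medians, 0.079 and 0.094, were therefore fixed in advance and add nothing to the counts of 17. Its p-values could change, and 0 genes passed. Same-numbered arrays deviated together with correlations of -0.047, -0.060 and -0.15, so the numbers were not taken as pairs. Over all rows, 490 had an unadjusted p under 0.05, 1094 without the detection filter, 341 to 690 in the others, and 0 passed the adjusted threshold in any alternative. The slide could not be used as a block, since the headers name none. At 3 arrays per group and a median SD of 0.18, differences of the size seen here were not resolved gene by gene.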
